A study of Mus musculus with 35 samples.

Results

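Retina of mice that had been diabetic for 8 weeks and had microglia depleted in the last 2 of them was compared with retina of mice diabetic for 6 weeks, the state before depletion began. All 25655 genes of the deposited tables belong to the comparison, and 17876 of them had a deposited adjusted p-value in both tables used and were tested. The depleted group held 4 samples, labelled diabetic for 8 weeks with 2 weeks of DTx, and the 6 week group held 5 samples with no other treatment in the label. The comparison runs through 6 non-diabetic samples (ND), the control of both deposited tables. A further 5 samples, diabetic for 8 weeks and labelled with PBS, are set beside the contrast. All these groups are labelled wild-type retina, and age, strain and the way diabetes was induced are not given in the labels used here. The labels call the depleting agent DTx, whereas the series description speaks of PLX-5622, a drug that blocks the receptor encoded by Csf1r, given to CX3CR1-WT mice, and the text below says only depletion. The series holds 35 samples in 7 groups, and the labels do not say that samples are separate animals, so p-values measure the spread between samples, which may be technical.

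The files hold no value per sample. For each pair of groups a table gives the log2 ratio, its p-value and one mean, that of the group with the higher level, in a unit that is not stated. Sequencing depth is therefore unknown, and a group's mean is known only where it was the larger of a pair. The log2 difference was taken as the log2 of depleted over ND minus the log2 of 6 weeks over ND, which cancels ND, and values in parentheses after it are its standard error. A gene was called at a Benjamini-Hochberg adjusted p under 0.05 in a normal test over all 17876 genes. The contrast joins depletion with 2 more weeks of diabetes. The 8 week PBS samples are of the same diabetes duration as the depleted ones. The 6 week label names no PBS, so 8 week PBS against 6 weeks joins 2 more weeks with PBS. These cannot be told apart. Sample titles of the 6 week group (3011 to 3015), the depleted group (3026 to 3029) and ND (3006 to 3016) come from one run of numbers, and those of the 8 week PBS group (2974 to 2978) from another.

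Microglia are the resident macrophages of the retina. They depend on signalling through the receptor encoded by Csf1r, extend fine processes between neurons, and take part in synapse pruning, debris uptake and the complement pathway. In diabetic retina they are known to change shape and to release cytokines and chemokines, to which Muller glia, endothelium and incoming leukocytes respond. Many of their genes are switched on by PU.1, the factor encoded by Spi1, while interferon-stimulated genes are switched on through other elements in a wide range of cells.

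Of the genes tested, 599 (3.35%) were called, 136 higher (0.761%) and 463 lower (2.59%) in the depleted 8 week retina. A change of at least 2-fold was seen in 213 of them, 45 higher and 168 lower. Across all genes tested the median log2 difference was 0.00 and the median standard error 0.19. The error depends on how much of the 2 tables' error comes from the shared ND samples. When the errors were taken as independent, which overstates them, 54 genes (0.302%) were still called, 53 lower (0.296%) and 1 higher (0.00559%). Among those 54 genes, 25 belonged to the microglial, myeloid, complement and CC chemokine lists and 16 to the lens list described below. The remaining 13 included Lctl, Lgsn and Grifin, which the lens also expresses (log2 -10.23, -9.55 and -7.23), and the leukocyte genes Bcl2a1b, Mpeg1 and Fyb (-4.41, -1.81 and -3.15), of which all but Lctl were picked after their values were seen.

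**Figure D1:**
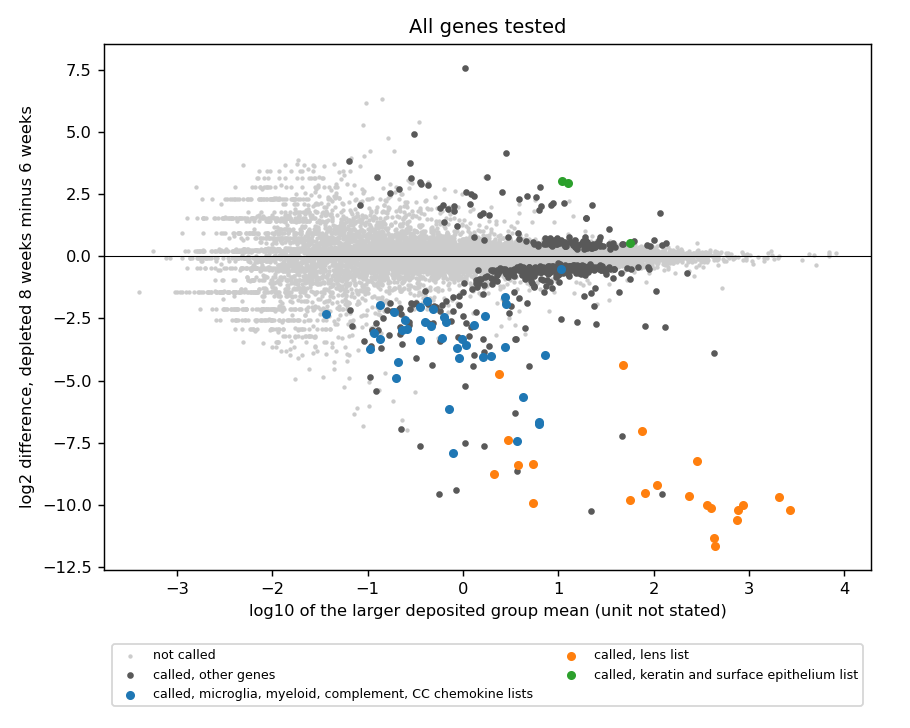
Log2 difference between depleted 8 week and 6 week diabetic retina (y axis) against log10 of the larger deposited group mean (x axis, unit not stated) for the genes tested. Grey points were not called, and coloured points are called members of the lists named in the legend. Microglial and myeloid genes lie low at small means, lens genes lie lowest at large means, and 463 of 599 called genes lie below 0.

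The genes that mark resting microglia were lower after depletion. Of 24 tested genes of the homeostatic microglia list, 10 were called lower and 0 higher, against 2.59% called lower over all genes. In this list 22 genes lay below 0, and the median log2 difference was -2.22, against 0.00 over all genes tested. With errors taken as independent 5 of the 10 were called, and with the lowest 40 percent of genes by level left out only 1, since most of these genes have small means. In bulk tissue, fewer cells of a type and less RNA per cell cannot be told apart.

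Cx3cr1, the receptor for the neuronal ligand fractalkine, had the lowest called value, log2 -6.13 (0.85). In the authors' deposited tables it stood at log2 -0.78 over ND at 6 weeks and at -6.91 after depletion, with an ND mean of 0.713. The 6 week value lay below ND but was not called there (deposited FDR 0.0584), and the depleted value was far below both. Csf1r, the receptor on which microglial survival depends, differed by log2 -2.75 (0.35), from -0.41 over ND at 6 weeks to -3.16 after depletion in the authors' deposited tables. Selplg, the P-selectin ligand, differed by -4.10 (0.60), and Cd33, an inhibitory lectin, by -3.07 (0.60). Tmem119, a membrane protein widely used to tell microglia from other macrophages, differed by -2.46 (0.57). These 5 genes were the ones called also with errors taken as independent.

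The other 5 were called with the shared error removed and not with errors taken as independent. Siglech and Fcrls, a lectin and an Fc receptor-like gene of microglia, differed by log2 -4.90 (1.27) and -4.25 (1.29). Sall1, a transcription factor that keeps microglial identity, differed by -3.35 (0.82), and its value in the 8 week PBS samples against 6 weeks was -1.80 (0.73), not called.

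P2ry12, the ADP receptor of resting microglia, was not called at log2 -1.23 (0.55). It was already at -1.08 over ND at 6 weeks and reached -2.32 after depletion in the authors' deposited tables, so it was low against ND in both groups. P2ry13 (-2.39), Gpr34 (-2.13), Ltc4s (-5.46) and Adora3 (-5.27) also lay low without being called. The standard errors of Ltc4s and Adora3 were 2.16 and 2.15. Some members stood near 0. Slc2a5 was at -0.24, Mef2c at -0.28, Bin1 at 0.37 and Rnase4 at 0.42, none of them called.

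**Figure D2:**
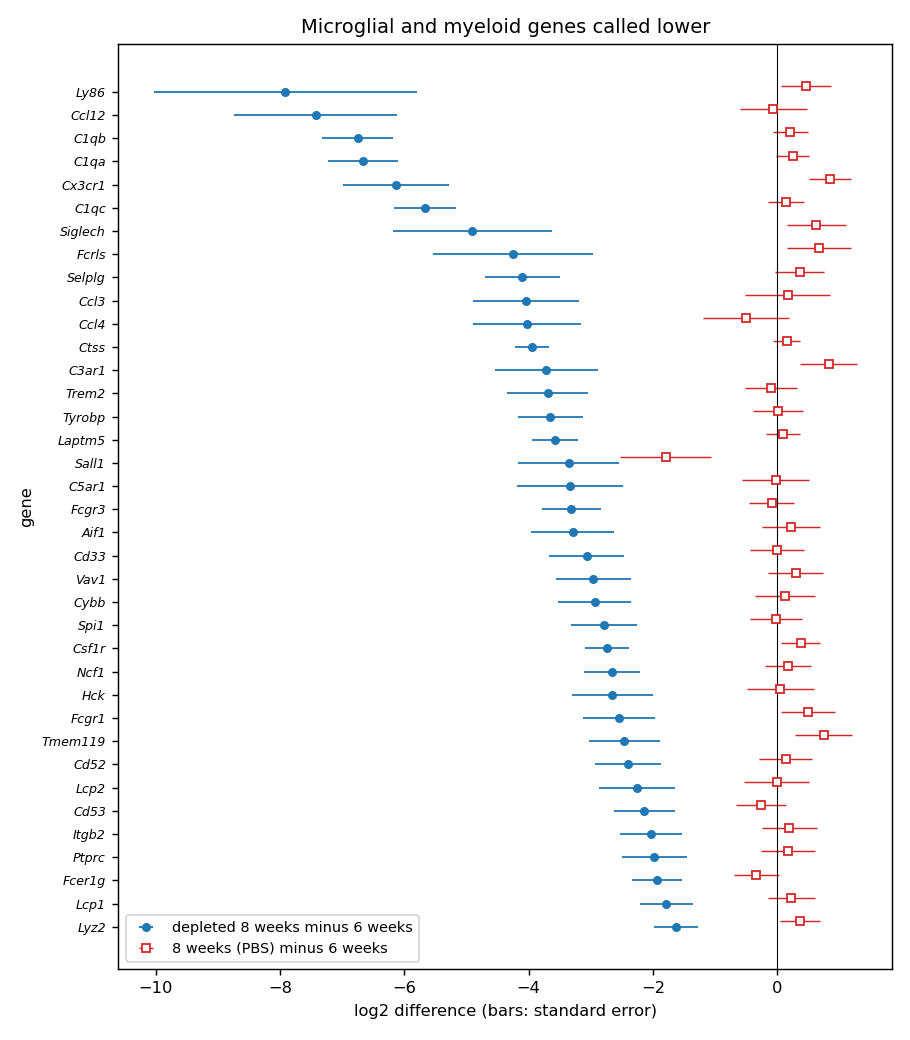
Log2 difference with its standard error (x axis) for 37 of the 39 genes called lower in the microglial, myeloid, complement and CC chemokine lists (y axis). Filled points are depleted 8 week minus 6 week retina and open squares are 8 week PBS minus 6 week retina. Filled points lie below 0 because only genes called lower are drawn. The open squares lie between -1.80 (Sall1) and 0.85 (Cx3cr1), with none called.

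Genes shared by microglia and other myeloid cells were lower as well. Of 30 tested, 21 were called lower and 0 higher, against 2.59% called lower over all genes. The list's median was log2 -2.20, and 15 of the 21 were called with errors taken as independent. Ctss, a lysosomal protease, had the smallest p of the list, at -3.95 (0.27). Its mean was 6.16 in ND, 7.21 at 6 weeks and 8.39 in the 8 week PBS samples in the authors' deposited tables, and after depletion it stood at -3.68 over ND. Tyrobp, the adaptor that passes on the signal of Trem2, differed by -3.65 (0.52), and Laptm5 and Fcgr3, a lysosomal membrane gene and an Fc receptor, by -3.57 (0.37) and -3.31 (0.48). Trem2 itself stood at -3.70 (0.65), Aif1, which encodes the microglial stain IBA1, at -3.29 (0.66), and Spi1, which encodes PU.1, at -2.79 (0.53), and these 3 were named after their values were seen.

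Some myeloid genes had been above ND at 6 weeks and lay below it after depletion. Spi1 went from log2 1.63 to -1.16 and the oxidase subunit gene Cybb from 1.93 to -1.01 over ND in the authors' deposited tables. Both were called in the contrast, Cybb at -2.94 (0.59). Not called were Irf8 at -0.04 (0.35), Cd68 at -0.55 (0.35), Cyba at -0.16 (0.28) and Itgam at -0.72 (0.43). Irf8, an interferon-responsive transcription factor, stayed above ND in both groups, at 1.30 and 1.26 in the authors' deposited tables. Genes named in this paragraph were chosen after their values were seen.

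Of 20 tested genes of microglia in their disease-associated state, 2 were called lower and 0 higher, against 2.59% called lower over all genes. The list had 17 genes below 0 and a median of log2 -0.19. Clec7a, a lectin, differed by -2.97 (0.85), while Fabp5, a fatty acid carrier, differed by -2.85 (0.50) and stood at -2.99 (0.44) in the 8 week PBS samples against 6 weeks. The genes of that list with broad expression in retina, such as Ctsd at -0.02 and Ctsb at -0.21, were near 0.

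Markers of other leukocytes were called in both directions, read against 3.35% of all genes tested. Of 11 tested genes of border-associated macrophages, F13a1 was called lower at log2 -5.43 (1.31) and Cbr2 higher at 2.38 (0.63). The scavenger receptor genes Cd163 and Mrc1 stood at -6.83 (2.18) and -2.58 (0.93) without being called. Of 16 monocyte and neutrophil genes, Ltf and Plac8 were called higher at 2.60 (0.66) and 1.65 (0.49), and Csf3r, the receptor for the granulocyte growth factor, lower at -2.09 (0.53). S100a8, S100a9 and Ly6c2, which mark incoming neutrophils and monocytes, stood at 0.70, 1.63 and -0.01, not called. Of 12 lymphocyte genes only Cd79b was called, at -2.25 (0.50), and it was lower still in the 8 week PBS samples against 6 weeks, at -4.02 (0.50). Cd163, Mrc1 and the 3 genes S100a8, S100a9 and Ly6c2 were picked after their values were seen.

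Complement split between its microglial and its other parts. The 3 subunits of the recognition molecule C1q had the lowest values of the list: C1qb stood at log2 -6.75 (0.57), C1qa at -6.66 (0.57) and C1qc at -5.67 (0.50). The mean of C1qa was 4.60 in ND, 6.25 at 6 weeks and 7.71 in the 8 week PBS samples in the authors' deposited tables. After depletion C1qa stood at -6.19 over ND there. The anaphylatoxin receptor genes C3ar1 and C5ar1 were lower, at -3.71 (0.82) and -3.33 (0.86). Those were the 5 called genes of 19 tested, against 2.59% called lower over all genes, and the list's median was -0.15. Genes that glia and vessels also make were not called. The central component gene C3 stood at -0.39 (0.67), the alternative pathway gene Cfb at -0.32 (0.68) and the classical pathway gene C4b at 0.45 (0.28). In the authors' deposited tables C3 was at log2 4.15 over ND at 6 weeks and 3.76 after depletion, and Cfb at 6.65 and 6.33. C5ar1, C3, Cfb and C4b were chosen after their values were seen.

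Sequence 5′ of the start site is shown for a C1q subunit and for Vav1, a guanine nucleotide exchange factor gene of blood cells (log2 -2.96, standard error 0.61, picked for its sequence). Of the 39 genes called lower in the microglial, myeloid, complement and CC chemokine lists, 27 were found by symbol in a RefSeq table of promoters on GRCm38.p6. In the 250 bases before the start, the letters GAGGAAGT, a core that PU.1 is known to bind, were searched on both strands. The core was found in 2 of the 32 promoters of those genes (6.25%), against 802 of all 32851 promoters (2.44%). It begins 195 bases before the start in C1qc, where it reads on the minus strand, and 11 bases before it in Vav1. Both are printed 5′ to 3′ in the direction of the gene with the core in capitals, C1qc from chr4:136892915-136893164, minus strand and Vav1 from chr17:57278850-57279099, plus strand.
C1qc: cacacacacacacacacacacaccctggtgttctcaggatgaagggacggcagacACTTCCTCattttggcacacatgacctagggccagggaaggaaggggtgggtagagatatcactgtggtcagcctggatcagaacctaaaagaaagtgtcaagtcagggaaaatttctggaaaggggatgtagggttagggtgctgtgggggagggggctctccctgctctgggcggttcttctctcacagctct
Vav1: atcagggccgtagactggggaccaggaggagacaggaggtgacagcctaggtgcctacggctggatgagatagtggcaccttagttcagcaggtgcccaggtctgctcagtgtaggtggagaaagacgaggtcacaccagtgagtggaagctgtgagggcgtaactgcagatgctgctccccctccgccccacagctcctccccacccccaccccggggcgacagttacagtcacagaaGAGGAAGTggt
A match is a description of the letters, and the other 25 genes have none in this window.

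Chemokine genes divided in the same comparison. Of 20 CC chemokine and receptor genes, 4 were called lower and 0 higher, against 2.59% called lower over all genes. Their median was log2 -0.90. Ccl12, a monocyte attractant, differed by -7.42 (1.31), from 4.59 over ND at 6 weeks to -2.83 after depletion in the authors' deposited tables. The depleted value was not called against ND (deposited FDR 0.112), with an implied standard error of 1.39. Ccl3 and Ccl4, which draw in monocytes and T cells, differed by -4.04 (0.86) and -4.02 (0.86). The mean of Ccl3 was 1.61 at 6 weeks, 1.83 in the 8 week PBS samples and 0.0958 after depletion, and that of Ccl4 was 1.98, 1.41 and 0.119, in the authors' deposited tables. Both genes were thus high in both diabetic groups without depletion and low in the depleted one. With errors taken as independent Ccl12 was called and Ccl3 and Ccl4 were not.

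Ccl2 and Cxcl10, attractants of monocytes and of T cells, were not called. Ccl2 differed by log2 -1.92 (0.87), with means of 25.3 at 6 weeks and 6.77 after depletion in the authors' deposited tables. Cxcl10 differed by -1.78 (1.05), with means of 34.3 and 10.2 there. The means differed several-fold, but the standard errors were close to 1. Both stayed far above ND after depletion, at 5.82 and 6.69 in the authors' deposited tables. Of 15 CXC genes 0 were called, with a median of -0.21. Of 16 genes of the IL-6 family and STAT3 pathway, 1 was called lower, against 2.59% over all genes. It was Lif, a cytokine that Muller glia answer to, at -3.31 (0.86). Its mean was 3.56 at 6 weeks, 4.57 in the 8 week PBS samples and 0.364 after depletion in the authors' deposited tables. Il6 stood at -1.99 (1.03), not called, and like Ccl2 and Cxcl10 was chosen after its values were seen.

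Of 19 IL-1, TNF and NF-kB feedback genes, 0 were called in either direction, and all 19 lay below 0, with a median of log2 -0.59. Tnf stood at -1.88 (0.68) and Il1b at -1.69 (0.79), both picked after their values were seen. In the authors' deposited tables the list's median over ND was 1.91 at 6 weeks and 0.89 after depletion. In the 8 week PBS samples against 6 weeks the list's median was -0.20, also with 0 called. Of 19 Toll-like receptor and inflammasome genes 1 was called lower, against 2.59% over all genes. It was Tlr1, which pairs with Tlr2 on myeloid cells, at -4.87 (1.30).

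The acute-phase, interferon and MHC class I lists stood high over ND in both groups. Acute-phase genes had a median log2 of 3.74 over ND at 6 weeks and 3.75 after depletion in the authors' deposited tables, and 0 of 16 were called in the contrast, whose median was 0.00. Lcn2, an iron-binding protein of reactive glia and neutrophils, stood at 0.52 (0.64), with means of 185 at 6 weeks and 285 after depletion in the authors' deposited tables. Saa3, a serum amyloid gene, stood at -1.02 (0.75). Both were picked after their values were seen. Interferon-stimulated antiviral genes had a median of 1.72 over ND at 6 weeks and 1.74 after depletion in the authors' deposited tables, and 0 of 30 were called, with values from -0.81 to 0.68. Summed over the 28 of those 30 genes with both means, the level was 197.8 at 6 weeks and 203.0 after depletion in the authors' deposited tables. None of 17 interferon-inducible GTPase genes and none of 18 MHC class I genes was called, with medians of -0.34 and -0.08. Of 12 MHC class II genes, which serve antigen presentation by myeloid cells, only H2-Aa was called, lower at -1.96 (0.60). Over all genes 2.59% were called lower. In the class II list 10 genes lay below 0, and the median was -0.98. The class II medians over ND were -0.29 at 6 weeks and -0.46 after depletion in the authors' deposited tables. A value that misses the threshold does not show that the groups are alike, and the standard error was, for example, 0.74 in the antiviral gene Rsad2.

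**Figure D3:**
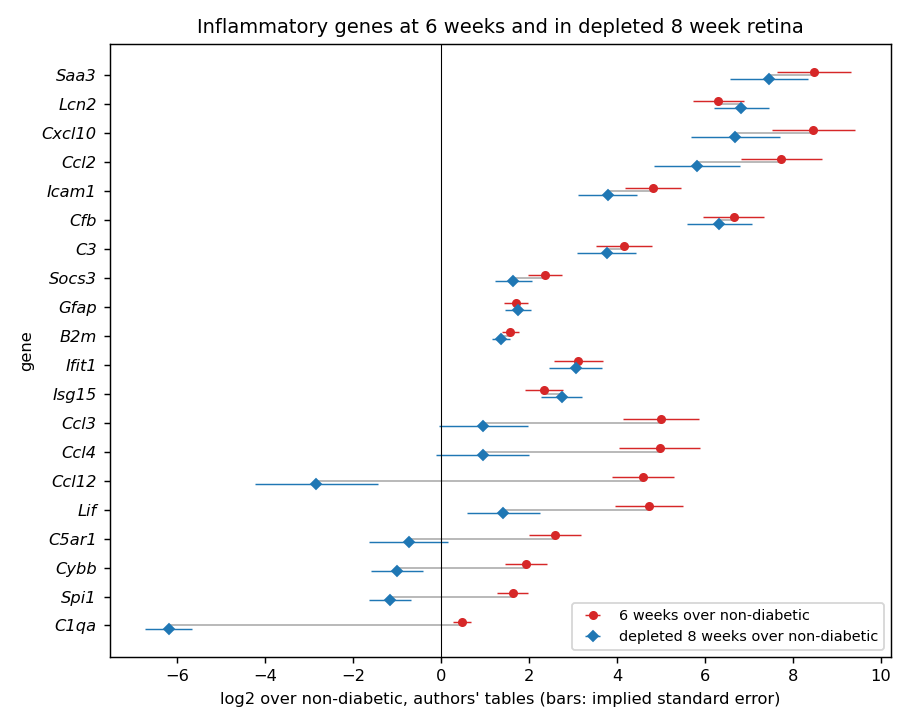
Log2 over ND in the authors' deposited tables (x axis) with the standard error implied by the deposited p for 20 inflammatory and myeloid genes (y axis), chosen after their values were seen. Red circles are 6 week and blue diamonds depleted 8 week retina. Genes from Saa3 to Isg15 lie well above 0 in both groups, and Ccl3 and Ccl4 lie at 0.96 and 0.94 after depletion, far under their 6 week values. Ccl12 and the genes under it lie above 0 at 6 weeks and, except Lif, below 0 after depletion. The depleted value of Ccl12 was not called against ND (deposited FDR 0.112).

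Promoters of interferon-stimulated genes are shown because this list lay above ND in both groups, with a median difference of -0.02 between them. Of the 30 genes, 21 were found by symbol in the same RefSeq table, with 23 promoters. The interferon response core, GAAA followed after any 2 bases by a further GAAA and searched on both strands in the 250 bases before the start, was present in 9 of the 23 (39.1%), against 978 of all 32851 promoters (2.98%). It was also present in 4 of the 32 promoters searched above for the PU.1 core (12.5%). The PU.1 core was found in 0 of the 23. Copies of the interferon core may overlap each other, as in Isg15. Ifit1 (chr19:34640639-34640888, plus strand) and Isg15 (chr4:156200819-156201068, minus strand) are printed in the direction of the gene with the cores in capitals.
Ifit1: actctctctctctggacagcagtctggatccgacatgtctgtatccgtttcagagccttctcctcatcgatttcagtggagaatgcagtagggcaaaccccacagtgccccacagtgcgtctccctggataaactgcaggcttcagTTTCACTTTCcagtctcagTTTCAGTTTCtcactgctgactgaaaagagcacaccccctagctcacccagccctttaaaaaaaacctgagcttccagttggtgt
Isg15: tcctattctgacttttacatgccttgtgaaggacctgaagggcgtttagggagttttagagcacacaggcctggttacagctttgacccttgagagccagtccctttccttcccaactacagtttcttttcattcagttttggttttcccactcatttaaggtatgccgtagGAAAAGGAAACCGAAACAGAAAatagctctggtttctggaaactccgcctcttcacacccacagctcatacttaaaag
The first core begins 104 bases before the start in Ifit1, on the minus strand, and 78 bases before it in Isg15, on the plus strand. Ifit1, which binds foreign RNA caps, stood at log2 -0.06 (0.56) in the contrast, with means of 5.84 at 6 weeks and 5.90 after depletion in the authors' deposited tables. Isg15, a ubiquitin-like modifier, stood at 0.40 (0.44). Both were picked for their sequences.

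Of 23 reactive gliosis genes, 2 were called lower and 0 higher, against 2.59% called lower over all genes. In this list 16 lay below 0, and the median was log2 -0.57. In the 8 week PBS samples against 6 weeks its median was -0.35, with 2 called lower (3.94% over all genes). In the authors' deposited table of depleted over 8 week PBS retina its median was -0.23. There 3 were higher and 1 lower, against 5.85% and 4.9% over all genes. Gfap, which encodes an intermediate filament of astrocytes and of Muller glia under stress, stood at 0.05 (0.33), with means of 6.33 at 6 weeks and 7.01 after depletion in the authors' deposited tables. Cd44, an adhesion receptor on Muller glial processes and leukocytes, differed by -1.69 (0.46). Hspb1, a small heat shock protein gene, differed by -2.80 (0.44) and was also low in the 8 week PBS samples against 6 weeks, at -3.32 (0.38). Of 20 genes of resting Muller glia, the water channel gene Aqp4 was called at -0.47 (0.14). It was not called after removal of the trend with transcript length and GC described below.

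Vessel genes showed 2 calls, both higher, against 0.761% called higher over all genes. Ly6a and Ly6c1, surface proteins of endothelium that interferon also induces, were higher by log2 1.11 (0.21) and 0.77 (0.24) among 22 endothelial and barrier genes. Ly6a was also called with the length and GC trend removed and with group variances fitted, settings described below. Ly6c1 was called in neither. The mean of Ly6a was 15.0 at 6 weeks and 34.0 after depletion in the authors' deposited tables. Vegfa, the growth factor behind retinal leakage and new vessels, stood at -0.23 (0.16), and 0 of 19 VEGF and angiopoietin genes and 0 of 15 pericyte and smooth muscle genes were called. The basement membrane gene Nid1 was the only called gene of 20 matrix genes, at -3.32 (0.80), against 2.59% called lower over all genes. Nid1 stood at -2.98 (0.73) in the 8 week PBS samples against 6 weeks.

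Markers of retinal neurons showed 1 call. None of 22 rod, 16 cone, 18 bipolar, 22 amacrine and horizontal and 25 synapse genes was called, with medians of log2 -0.04, -0.16, 0.00, -0.18 and -0.11. Slc17a6, the glutamate transporter of ganglion cell synapses, was the only called gene of 20 ganglion cell genes, at -0.53 (0.15), and was not called after removal of the length trend. The labelled tissue was seen in its markers, since all 22 genes of the rod list and all 18 of the bipolar list were detected well enough to be tested.

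**Figure D4:**
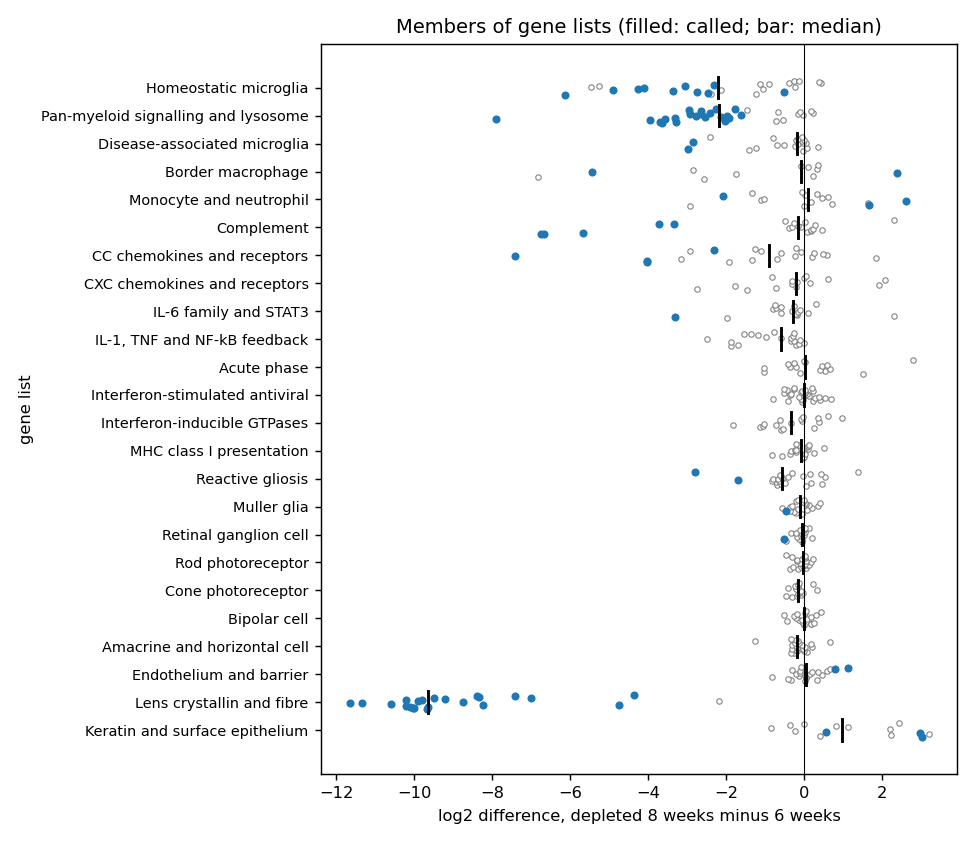
Log2 difference between depleted 8 week and 6 week retina (x axis) for each tested member of 24 gene lists (y axis). Filled points were called, open points were not, and the black bar is the list's median. The medians of the microglial, myeloid and lens lists lie at -2.22, -2.20 and -9.65, and those of the neuronal lists between -0.18 and 0.00.

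Immediate early genes, which fire in active cells, included 3 calls among 20, all lower, against 2.59% called lower over all genes. Fos differed by log2 -1.28 (0.34), Egr1 by -1.48 (0.34) and Egr2 by -3.40 (0.98). Egr1 was also lower in the 8 week PBS samples against 6 weeks, at -1.29 (0.31), whereas Fos and Egr2 stood there at -0.16 (0.32) and -0.20 (0.88).

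Of 26 cholesterol and fatty acid synthesis genes, 5 were called lower and 0 higher, against 2.59% called lower over all genes. Of the 26, 19 lay below 0 and 7 above, and the median was log2 -0.16. Insig1, a brake on sterol synthesis, differed by -0.59 (0.12) and Hsd17b7, an enzyme of the pathway, by -0.79 (0.23). Scd2, a fatty acid desaturase gene picked after its value was seen, stood at -0.47 (0.14). With group variances fitted per gene to the tables that hold ND, a setting that called 628 genes in all (3.51%; 143 higher, 0.8%, and 485 lower, 2.71%), 3 of the 5 were called, Insig1 and Hsd17b7 among them. With the length and GC trend removed Insig1 was called and Hsd17b7 and Scd2 were not. Among lipid efflux genes Abcg1, a cholesterol exporter, was lower at -0.62 (0.14) and Nr1h2, a sterol-sensing receptor, higher at 0.39 (0.12). Abcg1 was also lower in the 8 week PBS samples against 6 weeks, at -0.53 (0.12). Acadm, an enzyme of fatty acid oxidation, was higher at 0.61 (0.13).

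The 3 called stress genes were low without depletion too. Cryab and Hspb1, small heat shock genes, were the only called members of 27 heat shock and unfolded protein genes. Over all genes 2.59% were called lower. Cryab differed by log2 -3.88 (0.96). In the 8 week PBS samples against 6 weeks Cryab stood at -4.32 (0.88). Hmox1, the heme-degrading enzyme, was the only called member of 15 NRF2 antioxidant genes, at -2.51 (0.39), and stood at -1.96 (0.33) in the 8 week PBS samples against 6 weeks. In the authors' deposited tables its mean was 10.6 at 6 weeks, 2.89 in the 8 week PBS samples and 2.00 after depletion. Arrdc2, an arrestin-like gene, was higher at 0.76 (0.16) and fell by 0.85 in the 8 week PBS samples against 6 weeks. Glycolysis, oxidative phosphorylation, ribosomal protein, cell cycle and histone lists gave 0 calls.

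The lowest genes of the whole contrast were lens genes. Of 23 lens crystallin and fibre genes, 22 were called lower, against 2.59% over all genes. They ranged from log2 -11.64 in Crygd (1.29) to -4.37 in Lenep, and the list's median was -9.65. All 12 of the largest falls among genes in the upper 60 percent of level were lens genes: 11 of the list and Lctl at -10.23 (1.42). The mean of Cryaa was 1484 in ND, 2084 at 6 weeks and 20.4 in the 8 week PBS samples, and Cryaa stood at -9.15 over ND after depletion, in the authors' deposited tables. Summed over the 17 lens genes with all 3 means, the level was 3791 in ND, 9657 at 6 weeks and 92.6 in the 8 week PBS samples in the authors' deposited tables. The lens list was also low without depletion, with a median of -6.75 in the 8 week PBS samples against 6 weeks and 23 of 23 called lower. Hspb1, Cryab, Fabp5, Hmox1, Nid1 and Cd79b were, like the lens list, lower than at 6 weeks in both 8 week groups, and its part in them was not tested. The homeostatic microglia list, by contrast, had a median of 0.25 in the 8 week PBS samples against 6 weeks, with 0 called.

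Genes of surface epithelium had the largest rises among called genes in the upper 60 percent of level. Krt16, Krt5, Krt15 and Krt6a, keratins of stratified epithelium, were higher by log2 4.16 (1.22), 3.02 (0.92), 2.96 (0.81) and 2.79 (0.86). The mean of Krt15 was 1.51 at 6 weeks and 12.7 after depletion in the authors' deposited tables. Of 14 tested genes of the keratin and surface epithelium list, Krt15, Krt5 and Krt18 were called higher and 0 lower. Over all genes 0.761% were called higher. Krt16 and Krt6a are not counted in that list. The list's median was 0.97, and Krt12, a corneal keratin picked after its value was seen, stood at 2.22 without being called. With the trend in transcript length and GC removed, 1 of the 3, Krt15, was called. Summed over the 11 genes with both means, the list's level was 44.6 at 6 weeks and 98.5 after depletion in the authors' deposited tables. Krt18 made up most of both sums, with means of 36.4 and 57.0 there, and differed by log2 0.545 (0.14). Adh1, Plet1, Upk1b, Lypd2, Calml3, Psca and Prss27, which many epithelia express, completed the 12 largest rises together with Cbr2, at between 2.05 and 2.58. Krt16, Krt5, Krt6a, Lypd2, Calml3 and Prss27 among these 12 were not called once that trend was removed. Cbr2 and Ltf, called above as macrophage and neutrophil genes, moved with these epithelial genes, whose part in them was not tested. None of the rises was called with errors taken as independent except Cyp4f13, a cytochrome P450 gene, at 0.78 (0.15), and Cyp4f13 was named after its value was seen.

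The 8 week PBS samples allow the same genes to be read against a group of equal diabetes duration. These comparisons share samples with the contrast, so each one's own values stand side by side. In the authors' deposited table of depleted over 8 week PBS retina, 1826 of 16982 genes (10.8%) were called, 994 higher (5.85%) and 832 lower (4.9%). There the homeostatic microglia list had 14 lower and a median log2 of -2.30, and the myeloid list 22 lower and -2.25. In the 8 week PBS samples against 6 weeks, derived as the contrast was, 908 of 17495 genes (5.19%) were called, 690 of them lower (3.94%), and the myeloid list had 0 called and a median of 0.10. Cx3cr1 stood at -6.98 in the authors' deposited table of depleted over 8 week PBS retina and at 0.85 (0.33) in 8 week PBS against 6 week retina. Ccl12 stood at -7.35 in that authors' deposited table and at -0.06 (0.54) in 8 week PBS against 6 weeks, and Lif at -3.66 and 0.35 (0.80). The epithelial list had 8 genes higher in the authors' deposited table of depleted over 8 week PBS retina and 0 in 8 week PBS against 6 weeks.

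Small changes followed transcript length and base composition. In the upper 60 percent of level, 284 genes were called lower by less than 2-fold, and their median transcript length was 5556 bases with 44.9% GC. The 89 genes called higher by less than 2-fold had 2962 bases and 55.6% GC, and the 10269 genes not called had 3374 bases and 50.2% GC. Over bins of 1071 or 1072 genes ordered by length, the median log2 difference went from 0.10 in the shortest, with a median of 1054.5 bases, to -0.16 in the longest, with 8256.5 bases. After a cubic trend in length and GC was removed, 321 genes (1.8%) were called, 74 higher (0.414%) and 247 lower (1.38%), 292 of them also called before. The called microglial genes then numbered 8 and the myeloid ones 21, against 10 and 21 before. Aqp4, Slc17a6, Clock, Nr1h2, Slc30a1, Ly6c1 and Krt18 were among the 79 called named genes that lost their call. In the 8 week PBS samples against 6 weeks, the median was -0.06 in the shortest bin and -0.05 in the longest. In the bins of lowest and highest GC it was -0.05 and -0.01 there, against -0.14 and 0.11 in the contrast. What links the small changes to length and GC was not tested.

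**Figure D5:**
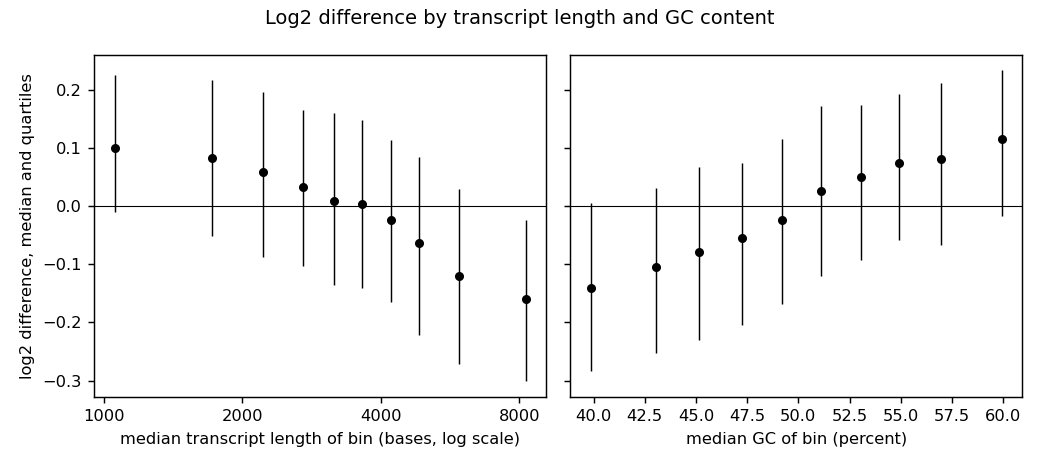
Median log2 difference between depleted 8 week and 6 week retina with its quartiles (y axis) in 10 bins of genes by transcript length (left, log scale) and 10 bins by GC content (right), upper 60 percent of level. The median falls from 0.10 to -0.16 with length and rises from -0.14 to 0.11 with GC content.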

How the data were processed

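Poly(A) RNA of mouse retina was sequenced as stranded paired 100 bp reads, per the labels' protocols. The submitters' processing notes name bcl2fastq and the GRCm39 build. The aligner, the counter and the test were not given in the sources used here. For 25655 genes in each of 8 tables, the authors deposited log2 ratios, p-values with an FDR form, and a signal level, which is the mean of the higher group. Standard errors were taken as the log2 value over the normal quantile of p. The contrast's variance was the sum of both variances less 2 times the ND variance, estimated from tables that close a triangle (the smaller of 2 estimates, with a floor of 10% of the sum). As a check, depleted over 8 week PBS retina was derived with the ND variance from the 10 week tables alone. The median ratio of derived to deposited standard errors was 1.00 in 16966 genes. In that check 2014 genes were called against 1826 in the authors' deposited table and 1542 in both. It did not cover the smaller of 2 estimates, which the contrast uses. With the checked setting the contrast itself had 1055 genes called, against 599 with the setting used. The steps were also run on simulated data, with errors drawn from the fitted group variances. The simulated triangles closed by construction apart from added noise, so that run cannot decide whether those of the deposited tables close.

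Named genes were the 12 largest called rises and falls in the upper 60 percent of level, up to 4 called members of each of 51 lists, all homeostatic microglia genes and 8 fixed genes; predicted names were left out. The contrast, its gene lists and alternatives were chosen with earlier results of these data known. Lengths came from a GRCm38 annotation for 25600 genes. Python 3.11.15, numpy 2.4.6, pandas 2.3.3 and scipy 1.17.1 were used. Some genes that the rule names are not reported here.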

Additional observations from a re-analysis of the deposited data

How the results depend on the processing

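No paired analysis was possible because the tables hold no value per sample, and for the same reason no replicate could be left out. The 136 higher and 463 lower genes became 1 and 53 with errors taken as independent, 290 and 716 with the ND variance from the 8 week tables alone, and 238 and 817 from the 10 week tables alone. They became 32 and 218 at an adjusted p under 0.01, 279 and 709 under 0.10, and 45 and 168 at an absolute log2 of at least 1. With alternatives added after the data were seen, they became 74 and 247 with the length and GC trend removed, and 69 and 181 with that and fitted group variances. Fitted variances alone, also added, gave 628 calls, 453 of them shared. The 10 lower homeostatic microglia genes became 5 with independent errors and 1 with the lowest 40 percent of level left out. Gfap turned from 0.05 to -0.0387 when the trend was removed, with or without fitted variances, far within its error. Of 96 named genes 79 were called, and of these 52 lost their call with independent errors, 19 with the trend removed and 4 with fitted variances. With fitted variances 2 named genes not called before gained a call. Of the called genes 143 lie in the lowest 40 percent of level, where a group near 0 makes the fold change depend on the authors' model.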

Other observations

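Called genes outside the lists are given here and were picked after their values were seen. Leukocyte genes among them were Arhgap30 (log2 -2.96, standard error 0.67), Cyth4 (-1.88, 0.41), Pld4 (-2.05, 0.47) and Bcl2a1b (-4.41, 0.85). In the 8 week PBS samples against 6 weeks these 4 stood at 0.22, -0.04, 0.64 and -0.16. Bcl2a1b, a survival gene of activated leukocytes, was at 3.09 over ND at 6 weeks and at -1.32 after depletion in the authors' deposited tables. Zfp36, which shortens the life of cytokine messages, was lower, at -1.45 (0.42), as was Id2, an inhibitor of helix-loop-helix factors, at -1.28 (0.33). Atxn1l and Zfp597, which belong to no list here, were lower, at -1.05 (0.15) and -0.77 (0.18), and both were called with errors taken as independent.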
